A study of Mus musculus with 2 samples.

Results

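The 37 genes described here encode the chaperones and disulfide isomerases of the endoplasmic reticulum (ER), the machinery of ER-associated degradation (ERAD), and the sensors and transcription factors of the unfolded protein response (UPR). They were taken by gene symbol from the 23183 genes measured in 2 mRNA sequencing libraries of mouse lung cancer cells, and fell into 22 chaperones and isomerases, 10 ERAD genes and 5 UPR sensors and factors. All 37 had an entry in both libraries, though 1 of them, Derl3, was listed at 0 in 1 library. A mean level of at least 1 FPKM was reached by 36 of them. FPKM is a fragment count scaled to the length of the transcript and to the mapped fragments of the library.

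The cells were immortalized cells from lung tumors of KPR L/F mice. These carry the alleles Flp ERT2 and Tomato, Runx3 flox/FSF, p53 flox/flox and K-Ras LSL-G12D/+. Mice of 6 to 8 weeks received Ad-Cre, an adenovirus that carries Cre recombinase, through the nose, and the methods give 4 weeks from infection to the collection of the tumors. Cre switches on the K-Ras G12D allele, deletes p53 and the floxed Runx3 allele and labels the cells, so both libraries share an active K-Ras and the loss of p53. The remaining Runx3 allele carries a Frt-Stop-Frt cassette, which the recombinase FlpERT2 removes once 4-hydroxytamoxifen (4-OHT) is given. The library labelled KPR- has the genotype RUNX3 -/- and the time 0 h in its record, and the library labelled KPRrestored has RUNX3 -/+ and 16 h. Both records list 1 μM 4-OHT and medium with 10% serum, and neither says how many lines or cultures were used. With 1 library per condition no difference could be set against the variation between cultures, and 4-OHT, time in culture and the state of Runx3 cannot be told apart.

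Runx3 itself (chr4:135120652-135177990, + strand) was at 0.348 FPKM in the library labelled KPR- and at 0.349 FPKM in the library labelled KPRrestored, about 28 and 29 fragments. From so few fragments, counting error alone gave its log2 difference an interval of -0.79 to 0.82. No difference in Runx3 was thus detectable, and its level cannot decide whether the allele was restored. The paper reports Runx3 protein in restored cells by immunoblotting. The direction of each difference given here is between libraries as they are labelled. The libraries held an estimated 21.9 M and 22.5 M fragments. Of 11231 genes with a mean of at least 1 FPKM, the median difference was 0.0086 on the log2 scale, the central range between quartiles was -0.23 to 0.27, and the 20 reference genes lay between -0.43 and 0.20. All 7 epithelial markers were at 1 FPKM or more (summed levels of 6217 and 5571 FPKM), whereas none of 7 lung alveolar markers was, and Sftpc, Sftpb, Sftpa1 and Lamp3 were listed at 0 in both libraries (sums of 0.842 and 0.941 FPKM). Of 8 fibroblast markers only Vim and Col1a1 reached 1 FPKM. The sums over that list were 1790 and 1469 FPKM, of which Vim alone made up 1777 and 1464 FPKM. Of 7 endothelial and leukocyte markers only Kdr and Cd68 reached 1 FPKM (sums of 4.24 and 9.05 FPKM). The part of these lists in the values of the 37 genes was not tested, and in RNA from whole cultures fewer cells of a kind and less RNA per cell cannot be told apart.

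Proteins that enter the ER are folded by BiP (Hspa5) and GRP94 (Hsp90b1) with their co-chaperones, by the lectins calnexin and calreticulin, which hold glycoproteins, and by protein disulfide isomerases. Proteins that fail to fold are handed to ERAD, in which mannosidase-like proteins and lectins select the clients and the ubiquitin ligase Hrd1 (Syvn1) with Sel1l and the derlins takes them back to the cytosol. When unfolded proteins collect, Ire1 splices the mRNA of Xbp1, Atf6 is cut free from its membrane, and Perk (Eif2ak3) slows translation and favours Atf4. Xbp1 and Atf6 act with the factor NF-Y on ER stress elements (ERSE) in front of chaperone genes.

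The letters of that element were searched for in the 250 bases before the start of each gene, since it is the element known from chaperone genes. The ERSE was taken as CCAAT followed after 9 bases by CCACG, on either strand, in the promoter table of RefSeq (GRCm38.p6). Of the 37 genes 32 were in that table, and Hyou1, Sil1, Manf, Derl1 and Atf6 were not. The element was found before 10 of the 32 genes, namely Hspa5, Hsp90b1, Dnajc3, Calr, Canx, Pdia6, Ero1lb, Creld2, Syvn1 and Derl3. Of all 27025 genes of the table, 35 held it (0.130%), so that 10 of the 35 were members. Since the element was chosen as one known from chaperone genes, its larger share among the members is not a finding about them. A related element, ERSE-II, which is ATTGG, any base and CCACG, was found before Herpud1 alone among the members and before 10 genes of the table (0.0370%). A match is a match of letters and was not tested for binding. The stretches below show the element of each of these genes with 15 bases on either side (5 for Hspa5), 5′ to 3′ on the strand of the gene, with the element in capitals, read as CCAAT to CCACG or as its reverse complement.
Hspa5, chr2:34772020-34772048, + strand: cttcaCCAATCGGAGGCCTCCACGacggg
Hsp90b1, chr10:86705518-86705671, - strand: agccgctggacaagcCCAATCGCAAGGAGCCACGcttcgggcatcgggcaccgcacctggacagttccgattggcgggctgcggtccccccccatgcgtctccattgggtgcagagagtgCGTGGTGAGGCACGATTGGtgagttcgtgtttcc
Dnajc3, chr14:118937812-118937860, + strand: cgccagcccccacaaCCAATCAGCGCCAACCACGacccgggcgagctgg
Calr, chr8:84847060-84847108, - strand: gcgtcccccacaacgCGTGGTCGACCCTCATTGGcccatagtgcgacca
Canx, chr11:50325785-50325833, - strand: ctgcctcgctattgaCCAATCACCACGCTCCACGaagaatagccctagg
Pdia6, chr12:17266476-17266524, + strand: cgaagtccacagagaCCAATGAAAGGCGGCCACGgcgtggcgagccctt
Ero1lb, chr13:12565667-12565715, + strand: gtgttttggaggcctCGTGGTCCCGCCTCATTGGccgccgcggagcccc
Creld2, chr15:88819505-88819553, + strand: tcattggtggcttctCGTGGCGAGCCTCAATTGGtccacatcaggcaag
Syvn1, chr19:6046517-6046565, + strand: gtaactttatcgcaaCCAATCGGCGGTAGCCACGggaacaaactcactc
Derl3, chr10:75893227-75893275, + strand: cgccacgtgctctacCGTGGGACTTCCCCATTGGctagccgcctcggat
Herpud1, chr8:94386362-94386402, + strand: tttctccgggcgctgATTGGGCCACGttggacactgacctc

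The elements lay between -212 and -26 relative to the start of the gene in RefSeq. Hsp90b1 held a pair of them, at -212 to -194 and, on the other strand, at -107 to -89. The element of Hspa5 was at -65 to -47 and that of Syvn1, the nearest to its start, at -44 to -26. The ERSE-II of Herpud1 was at -52 to -42. For Hspa5 the start in RefSeq is at 34772090, whereas GENCODE M21, from which the gene spans given here are taken, starts the gene at 34771970, so that by GENCODE its element lies in the first exon. The stretches of the 10 other genes lie outside their GENCODE spans.

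**Figure D1:**
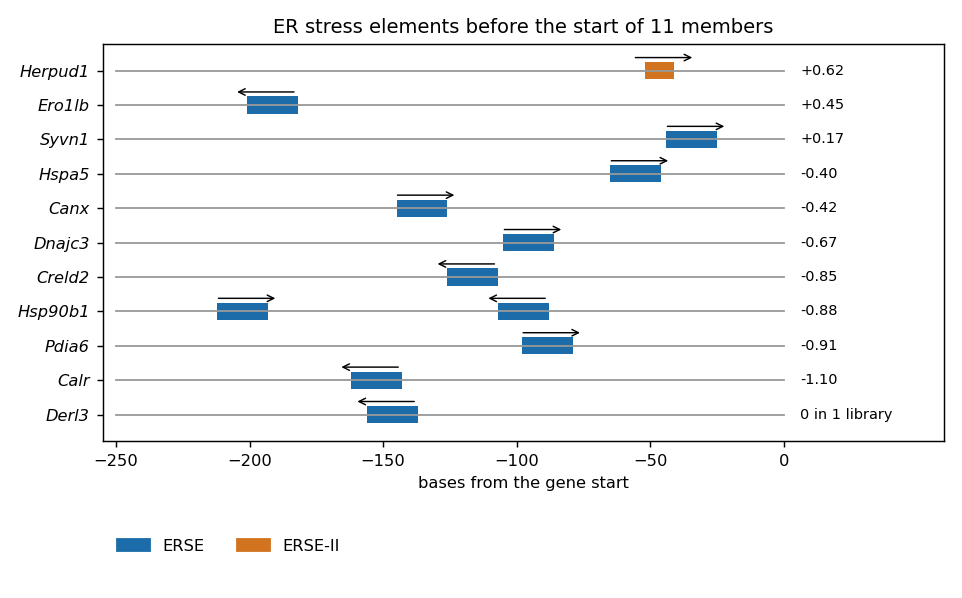
Position of the ERSE (blue) and ERSE-II (orange) in the 250 bases before the RefSeq start of 11 genes, with the x axis in bases from that start, arrows for the strand of the element relative to the gene, and the log2 difference between libraries at the right. Genes are ordered by that difference, from 0.62 for Herpud1 to -1.10 for Calr, with Derl3, listed at 0 in the library labelled KPRrestored, at the bottom.

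Differences are given as log2(FPKM + 0.005) in the library labelled KPRrestored minus the library labelled KPR-, and higher and lower are used in that sense. A gene was counted as higher or lower only at 0.5 or more either way, and a 95% exact (Clopper-Pearson) interval from the estimated fragments is given in brackets, which covers counting error only. As a group the 37 genes leaned to lower levels. Of the 36 genes with a mean of at least 1 FPKM, 27 were below 0 (75%) and 9 above, beside 49.0% below 0 among all genes at this level. The median difference of the 36 genes was -0.37. Past the threshold 11 were lower and 4 higher, where 9.29% of all genes at this level were lower and 12.1% were higher. The share of lower genes among the 36 was thus 30.6% and that of higher genes 11.1%, near the share of all genes. With Derl3, which is at a very low level, 12 of 37 were lower and 4 higher, beside 18.2% lower and 19.3% higher of the 16508 genes listed above 0 in a library. Summed over the 37 genes the level went from 4588 to 3125 FPKM, or from 0.880% to 0.597% of the total of each library.

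The 3 role groups did not share this difference evenly. The chaperones and isomerases had a median of -0.55, with 11 of 22 lower and 2 higher, and their sum went from 4199 to 2712 FPKM. The ERAD genes had a median of -0.12, with none of the 9 counted genes lower, 1 higher (Herpud1) and a sum of 284 and 305 FPKM. The sensors and factors had a median of -0.057, with none of 5 lower, 1 higher (Xbp1) and sums of 105 and 108 FPKM. All 11 lower genes were therefore chaperones, isomerases or their ER partners, and the 4 higher genes were spread over the groups. Among the chaperones and isomerases 50% were lower and 9.09% higher, beside 9.29% and 12.1% of all genes at this level. At the shares of all genes, groups of 9 and 5 hold few or no genes past the threshold. The counts of the ERAD genes and of the sensors and factors thus do not set them apart from all genes.

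**Figure D2:**
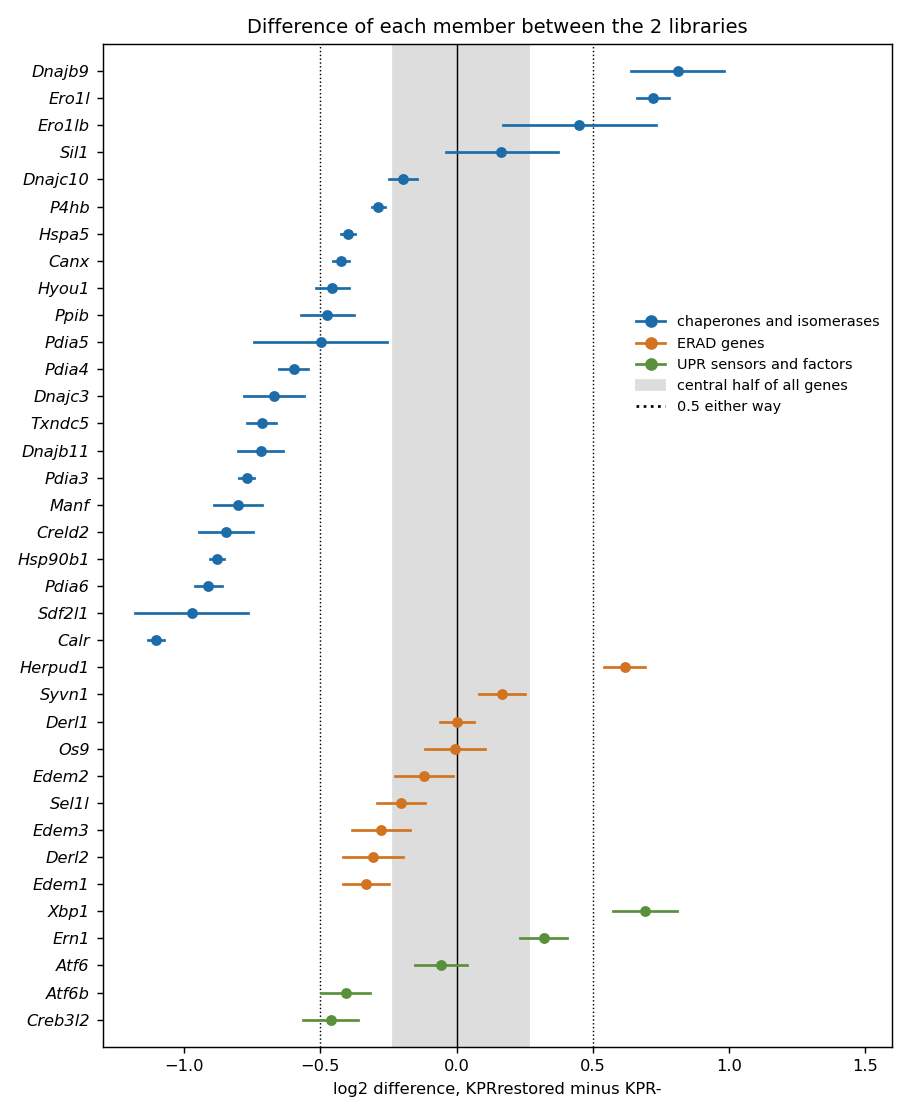
Log2 difference (library labelled KPRrestored minus library labelled KPR-) of the 36 genes with a mean of at least 1 FPKM, by role, with bars for the 95% counting interval, dotted lines at 0.5 either way and a grey band for the central range of all genes. The chaperones and isomerases reach down to -1.10, whereas no ERAD gene or sensor lies below -0.5.

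BiP, encoded by Hspa5 (chr2:34771970-34777547, + strand), is the ER member of the Hsp70 family and also binds the sensors of the UPR. It was at 496 FPKM in the library labelled KPR- and at 376 FPKM in the library labelled KPRrestored, a difference of -0.40 (-0.43 to -0.37) that did not reach the threshold. Hyou1, the larger Hsp70-like protein that exchanges the nucleotide of BiP, was at 57.5 and 41.9 FPKM, a difference of -0.46 (-0.52 to -0.40). Both Hsp70 genes were thus below their KPR- level by about the same amount, with intervals that overlap.

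GRP94, the ER form of Hsp90 encoded by Hsp90b1 (chr10:86690209-86705509, - strand), was lower by more than BiP. Its level was 625 FPKM in the library labelled KPR- and 340 FPKM in the library labelled KPRrestored, a difference of -0.88 (-0.90 to -0.85). The intervals of Hsp90b1 and Hspa5 did not overlap, and the ratio of Hspa5 to Hsp90b1 went from 0.792 to 1.11 in FPKM. GRP94 was the more abundant of the pair in the library labelled KPR- and BiP in the library labelled KPRrestored. Of the exonic bases of Hsp90b1, 10.3% overlap a gene on the other strand and 5.38% one on the same strand.

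The J-domain proteins, which bring clients to BiP and start its ATPase cycle, went in both directions. Dnajb11 was at 62.4 FPKM in the library labelled KPR- and at 37.9 FPKM in the library labelled KPRrestored, a difference of -0.72 (-0.80 to -0.64). Dnajc3, known as P58IPK, was at 16.001 and 10.05 FPKM, a difference of -0.67 (-0.78 to -0.56). Dnajc10, which reduces disulfides in clients of ERAD, was at 74.8 and 65.2 FPKM, a difference of -0.20 that lies within the central range of all genes. Dnajb9 (chr12:44205559-44210326, - strand), known as ERdj4, binds Ire1 as well as ERAD clients and was the only one of the 4 above 0. It was at 9.10 FPKM in the library labelled KPR- and at 15.97 FPKM in the library labelled KPRrestored, a difference of 0.81 (0.64 to 0.98) that was the highest of the 37 genes. BiP transcripts outnumbered those of Dnajb9 by 54.4 to 1 in the library labelled KPR- and by 23.5 to 1 in the library labelled KPRrestored.

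The other partners of BiP were Sdf2l1, Manf and Sil1. Sdf2l1, which keeps clients of the J-domain proteins soluble, was at 28.4 FPKM in the library labelled KPR- and at 14.5 FPKM in the library labelled KPRrestored. Its difference of -0.97 (-1.18 to -0.76) was the second lowest of the 36 genes, from 556 and 291 fragments. Manf, a secreted protein that binds the nucleotide-bound form of BiP, was at 62.5 and 35.8 FPKM, a difference of -0.80 (-0.89 to -0.71). Sil1, a nucleotide exchange factor of BiP, was at 11.2 and 12.5 FPKM with an interval of -0.04 to 0.37, so that no difference was detectable at this depth. Of the exonic bases of Manf 8.85%, and of Sil1 5.70%, overlap a gene on the other strand.

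Calreticulin and calnexin bind the same sugar on glycoproteins, the first as a soluble protein and the second in the membrane. Calr (chr8:84841850-84846934, - strand) was at 675 FPKM in the library labelled KPR-, the highest level of the 37 genes in that library, and at 314 FPKM in the library labelled KPRrestored. Its difference of -1.10 (-1.13 to -1.07) was the lowest of the 36 genes, and 1.06% of all genes with a mean of at least 1 FPKM had a lower one. Canx (chr11:50293961-50325673, - strand) was at 230 and 171 FPKM, a difference of -0.42 (-0.45 to -0.39). The ratio of the soluble to the membrane lectin went from 2.94 to 1.84.

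The disulfide isomerases form and rearrange the disulfide bonds of secreted proteins, and all 6 measured were below 0. Pdia6 (chr12:17266545-17284770, + strand) was at 219 FPKM in the library labelled KPR- and at 117 FPKM in the library labelled KPRrestored, a difference of -0.91 (-0.96 to -0.86). Pdia3, or ERp57, the partner of both lectins, was at 521 and 305 FPKM, a difference of -0.77 (-0.80 to -0.74). Txndc5 was at 127 and 77.0 FPKM, a difference of -0.72 (-0.77 to -0.66), and 11.9% of its exonic bases overlap Bmp6 or Gm31834 on the other strand. These 3 were lower, as was Pdia4, or ERp72, at 151 and 99.7 FPKM with a difference of -0.60 (-0.65 to -0.55). Pdia5 was at 9.51 and 6.72 FPKM, a difference of -0.499 (-0.74 to -0.26) just inside the threshold. P4hb, the founding isomerase of the family, was the least different of the 6, at 554 and 454 FPKM with a difference of -0.29 (-0.31 to -0.26). Its interval did not overlap that of any other isomerase with a mean of at least 100 FPKM, and it was the most abundant of the 37 genes in the library labelled KPRrestored.

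The oxidases that recharge the isomerases stood on the other side. Ero1l (chr14:45283087-45318771, - strand), the widely expressed ER oxidase, was at 38.9 FPKM in the library labelled KPR- and at 64.2 FPKM in the library labelled KPRrestored, a difference of 0.72 (0.66 to 0.78). Ero1lb, its paralog best known from the pancreas, was at 2.06 and 2.82 FPKM, a difference of 0.45 (0.17 to 0.73) from 182 and 255 fragments. Per transcript of P4hb there was 0.0703 of Ero1l in the library labelled KPR- and 0.141 in the library labelled KPRrestored. Oxidase and isomerase levels thus differed in opposite directions between the libraries.

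Of the remaining folding genes, Creld2, a secreted protein that is induced by ER stress, was at 89.6 FPKM in the library labelled KPR- and at 49.9 FPKM in the library labelled KPRrestored. Its difference was -0.85 (-0.94 to -0.75). Ppib, or cyclophilin B, a prolyl isomerase that works with GRP94 and on collagen, was at 140 and 101 FPKM, a difference of -0.47 (-0.57 to -0.38). For Ppib 24.96% of the exonic bases overlap Snx22 on the other strand, and whether the counting used the strand is not stated.

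**Figure D3:**
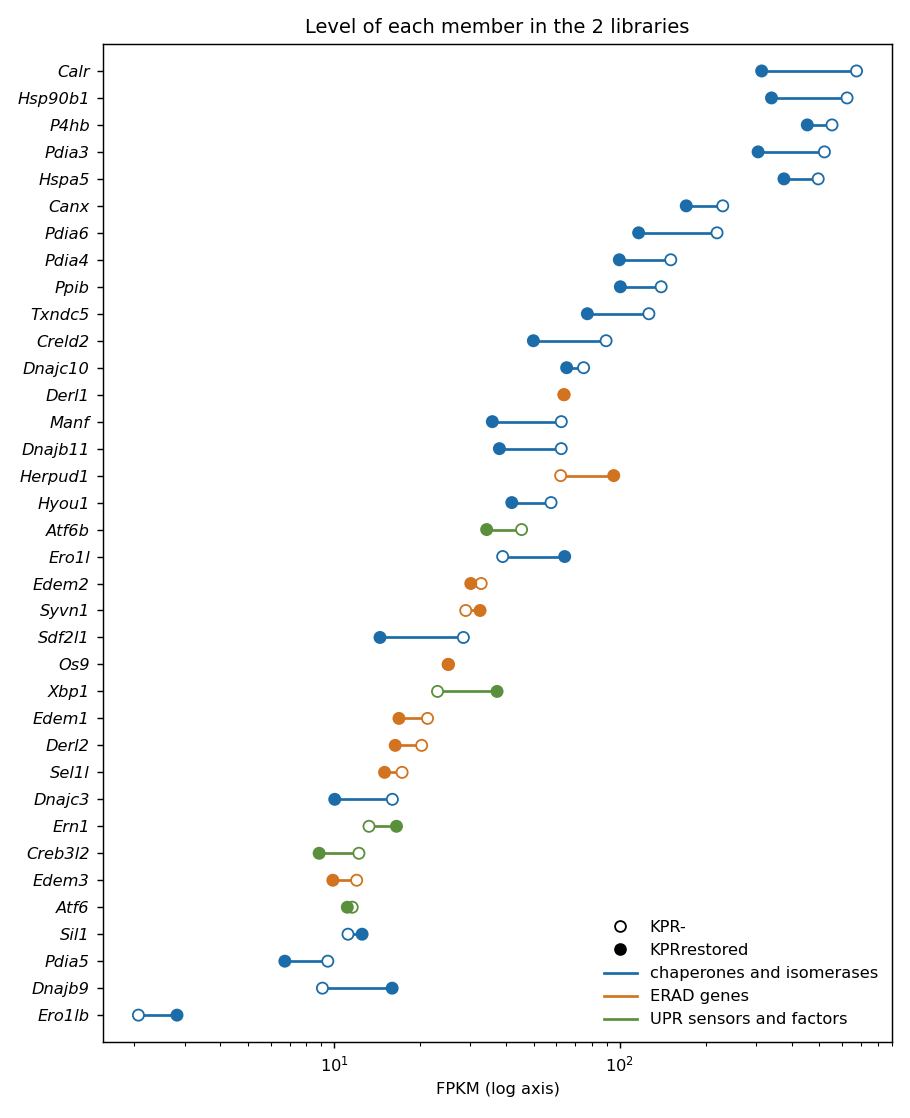
Level of the 36 genes in both libraries in FPKM on a log axis, with open circles for the library labelled KPR-, filled circles for the library labelled KPRrestored and the colour for the role. The chaperones at the top, from Calr to Txndc5, all have the filled circle at the left, and the larger shifts to the right are those of Herpud1, Ero1l, Xbp1 and Dnajb9.

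The ERAD genes with a mean of at least 1 FPKM lay within 0.5 of 0, apart from Herpud1. Herpud1 (chr8:94386438-94395377, + strand) encodes Herp, a membrane protein that brings the Hrd1 complex together. It was at 62.1 FPKM in the library labelled KPR- and at 95.3 FPKM in the library labelled KPRrestored, a difference of 0.62 (0.54 to 0.69). The ligase itself, Syvn1, was at 28.9 and 32.4 FPKM (0.17, with an interval of 0.08 to 0.25), and its partner Sel1l was at 17.3 and 15.02 FPKM (-0.20, with an interval of -0.29 to -0.12). Both lay within the central range of all genes, on opposite sides of 0.

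The 3 mannosidase-like proteins, which trim the sugars of misfolded clients, were all slightly below 0. Edem1 was at 21.2 and 16.9 FPKM with a difference of -0.33 (-0.42 to -0.25). Edem3 was at 12 and 9.90 FPKM with a difference of -0.28 (-0.38 to -0.17), and Edem2 at 32.7 and 30.1 FPKM with one of -0.12. Os9, the lectin that reads the trimmed sugar, was at 25.2 and 25.1 FPKM, a difference of -0.0052 (-0.12 to 0.10).

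The derlins form the channel through which clients leave the ER. Derl1 was at 63.8 FPKM in both libraries, a difference of 0.0011 with an interval of -0.061 to 0.063, the narrowest bound on a difference among the ERAD genes. Derl2 was at 20.3 and 16.4 FPKM, a difference of -0.31 (-0.42 to -0.20). Derl3, which is known from secretory cells, was at 0.202 FPKM in the library labelled KPR-, about 5 fragments, and was listed at 0 in the library labelled KPRrestored. No fold is given for it, and its count as lower follows from the pseudocount.

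Among the UPR factors, Xbp1 and Ern1 were above 0. Xbp1 (chr11:5520659-5525893, + strand) was at 23.0 FPKM in the library labelled KPR- and at 37.2 FPKM in the library labelled KPRrestored, a difference of 0.69 (0.58 to 0.81). One value per gene does not separate the spliced from the unspliced mRNA of Xbp1. Ern1, which encodes the sensor and nuclease Ire1 that splices it, was at 13.3 and 16.5 FPKM, a difference of 0.32 (0.23 to 0.41) short of the threshold.

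The membrane-bound transcription factors among the members were at or below 0, whereas Creb3, a related factor outside the members that is given below, was above 0. Atf6 was at 11.6 and 11.1 FPKM, a difference of -0.057 with an interval of -0.15 to 0.04, so that none was detectable at this depth. Its paralog Atf6b was at 45.4 and 34.2 FPKM, a difference of -0.41 (-0.50 to -0.32) on an interval that did not overlap that of Atf6. Creb3l2, a related factor of secretory cells, was at 12.2 and 8.87 FPKM, a difference of -0.46 (-0.56 to -0.36).

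Over all members the counting interval held 0 in 5 genes (Sil1, Os9, Derl1, Derl3 and Atf6) and left it out in 32, of which 25 were below 0 and 7 above. Of 9042 genes with fragments in the range of the 36 expressed members (182 to 35756 in each library), 35.8% had an interval below 0 and 34.8% one above it. Intervals that left out 0 were thus common at this depth, and the 25 below and 7 above are to be read against those shares. For the 11 lower and the 4 higher genes with a mean of at least 1 FPKM the whole interval lay beyond 0.5. Counting error was thus small beside most of these differences, while the error between cultures is not known.

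The more abundant members tended to have the lower differences, with exceptions. P4hb, with the highest mean of the members (504 FPKM), was at -0.29, and Sdf2l1, with a mean of 21.4 FPKM, at -0.97. The members with a mean of at least 100 FPKM were all chaperones or isomerases, so that level was not separated from role. All 10 members with a mean of at least 100 FPKM were below 0, with 6 past the threshold and a median of -0.66. The 835 genes of all kinds at that level had a median of -0.0089, with 51.1% below 0, 5.27% lower and 7.31% higher. The 26 members between 1 and 100 FPKM had a median of -0.20, with 5 lower and 4 higher, beside a median of 0.010 with 9.61% lower and 12.5% higher of 10396 genes of all kinds at that level. Across the 36 genes the mean level and the difference had a Pearson's r of -0.44 and a Spearman's rho of -0.41, and over 10827 genes with a known length rho was -0.029. For transcript length and the difference rho was 0.29 over the 36 genes and -0.21 over all. These are descriptions across genes of the same 2 libraries, and genes are not independent replicates.

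**Figure D4:**
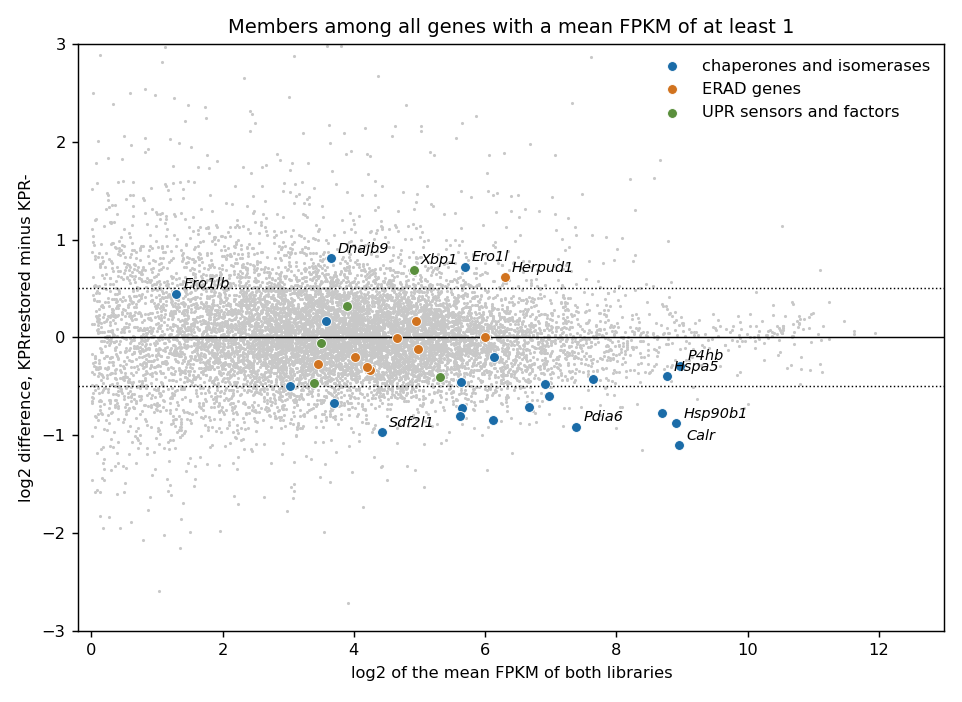
Log2 difference against the log2 mean level in FPKM for all 11231 genes with a mean of at least 1 FPKM (grey, those beyond 3 either way not drawn), with the 36 members coloured by role and dotted lines at 0.5. Calr, Hsp90b1 and Pdia6 lie below the lower dotted line at the right, where 1.06% (Calr) to 2.12% (Hsp90b1) of all genes had a lower difference. Dnajb9, Ero1l, Xbp1 and Herpud1 lie above the upper line but within the cloud. A higher difference was found in 4.81% (Dnajb9) to 8.34% (Herpud1) of all genes.

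The members with the ERSE letters shown above were set beside those without. Of the 10 lower members with a promoter sequence, 5 held the ERSE (Hsp90b1, Dnajc3, Calr, Pdia6 and Creld2), of 4 higher members none did, and of the 18 others 5 did (Hspa5, Canx, Ero1lb, Syvn1 and Derl3, with Derl3 at too low a level to be counted as lower here). The 9 members with the element and a mean of at least 1 FPKM had a median of -0.67, with 7 below 0, and the 22 without it one of -0.30. All of the 9 but Syvn1 were chaperones or isomerases, whereas the 22 included most of the ERAD genes and sensors. The element was thus not separated from the role of the genes. With CCACG alone the order turned, with a median of -0.33 over 23 such members with the letters and -0.43 over 8 without. Herpud1, with the ERSE-II, was at 0.62. The letters TGATGNAA, which resemble the element of Atf4 with C/EBP factors and were searched for after the values had been seen, were found before Herpud1 (-112 to -105) and Txndc5 (-105 to -98), and before 3.91% of all genes.

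Lists of other genes were set side by side, each counted over genes with a mean of at least 1 FPKM. They are read against the shares of 12.1% higher and 9.29% lower given above. Of 40 other ER folding genes 34 were below 0 (85%, beside 49.0% of all genes), but only 3 were lower and none was higher. Their median was -0.26. Fkbp14, an ER prolyl isomerase, was at 2.35 and 1.26 FPKM (-0.90), and Mogs, the glucosidase that starts the trimming of glycoproteins, at 44.4 and 30.1 FPKM (-0.56). At the other end Cnpy2 was at 78.6 and 104 FPKM (0.40) and Serp1 at 61.8 and 75.9 FPKM (0.30). Of 36 genes of the translocon, signal peptidase and oligosaccharyltransferase, which bring proteins into the ER and glycosylate them, 7 were lower and none higher, with a median of -0.13. Magt1 was at 45.8 and 24.8 FPKM (-0.89) and Spcs3, a subunit of signal peptidase, at 43.0 and 25.4 FPKM (-0.76). The highest of that list were Srp54c (0.47) and Srp19 (0.24), both of the signal recognition particle.

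Of 31 other ERAD genes 3 were higher and none lower, with a median of 0.019. Rhbdd1, a rhomboid protease of the ER, was at 11.9 and 22.1 FPKM (0.90), and Selk, a selenoprotein of the derlin complex, at 39.2 and 67.7 FPKM (0.79). Ubxn8 (-0.49) and Erlin1 (-0.30) had the lowest values. Of 15 other UPR regulators 1 was lower and none higher, with a median of -0.15. That gene was Wfs1, or wolframin, at 25.6 and 17.6 FPKM (-0.54), and Sppl2a was next at -0.49. Eif2ak3, which encodes Perk, was at 8.52 and 11.3 FPKM (0.41) and Creb3 at 17.9 and 23.0 FPKM (0.36).

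The genes of the Atf4 branch, which restore amino acid supply and drive the late stress response, had the highest median of the lists. Of 29 genes 27 were higher and none was lower, with a median of 1.87. This list was chosen with earlier results of these data known, and its count is not independent evidence of its direction. Whether Perk or ER stress had a part in these values was not tested. Atf4 was at 145 FPKM in the library labelled KPR- and at 446 FPKM in the library labelled KPRrestored (1.62), Ddit3, or Chop, at 12.3 and 52.8 FPKM (2.11), and Ppp1r15a, or Gadd34, at 7.85 and 28.9 FPKM (1.88). Chac1 was at 4.26 and 63.7 FPKM (3.90) and Gdf15 at 1.88 and 28.0 FPKM (3.89). The lowest of the list were Phgdh (0.25) and Cebpg (0.36).

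**Figure D5:**
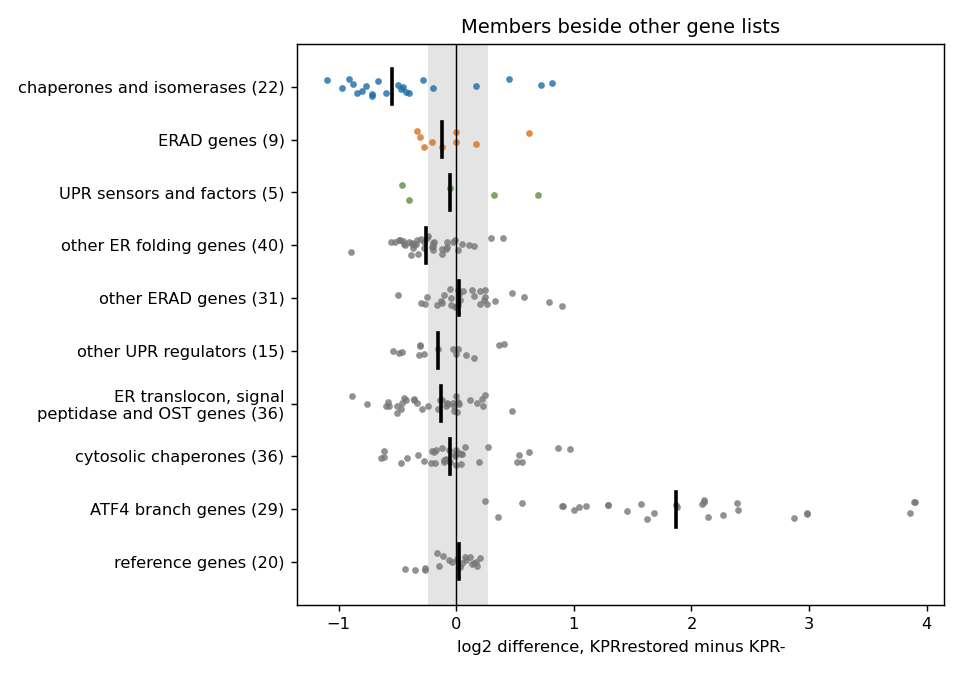
Log2 difference (library labelled KPRrestored minus library labelled KPR-) of each gene with a mean of at least 1 FPKM in the 3 role groups (coloured) and 7 other lists (grey), with a bar at each median and a grey band for the central range of all genes. The medians run from -0.55 for the chaperones and isomerases to 1.87 for the Atf4 branch, and that of the reference genes is 0.020.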

How the data were processed

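Poly(A) RNA of 1 library per condition had been sequenced by the authors from directional libraries (NEBNext Ultra II). Reads were trimmed, mapped to mm10 using TopHat, and FPKM values were estimated using Cufflinks and deposited for 23183 genes. The paper also names a geometric normalization of the read counts with EdgeR, and whether it entered the values used here is not stated. If it did, the depths estimated below are those of scaled values. Versions and the annotation are not given in the sources used here, nor is the use of strand in counting. The 37 genes, the other lists and the named genes (the members, the 2 highest and the 2 lowest of each other list, and Atf4, Ddit3, Eif2ak3, Ppp1r15a and Runx3) were chosen with earlier results of these data known. Differences were computed as log2(FPKM + 0.005), with a threshold of 0.5 either way and no p-value. With so small a pseudocount a gene listed at 0 in 1 library can reach a large difference from few fragments, as Derl3 did. Fragments were estimated from the steps between low FPKM values, assuming fragments of 214 bases and GENCODE M21 transcripts (GRCm38). At 557 and 572 low genes, 80.4% and 81.5% of values came within 0.1 of whole fragments, which gave the depths of 21.9 M and 22.5 M fragments. Promoters were from RefSeq (GRCm38.p6). Signals for ER retention were not analysed here. The alternatives were another pseudocount, threshold, filter, scaling and centring, and, chosen after seeing the data, removal of the median of the class of transcript length or level (20 classes). Scripts in Python 3.11.15 were tested on simulated data and used matplotlib 3.10.9 for plots, scipy 1.17.1 for intervals, and pandas 2.3.3 with numpy 2.4.6 for the tables.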

Additional observations from a re-analysis of the deposited data

How the results depend on the processing

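No library could be left out, since there was 1 per condition. No paired analysis was possible because each condition had 1 library. Under a threshold of 1 the count of lower members fell to 2 (Calr and Derl3) and that of higher members to 0. Over the other alternatives 11 to 14 members were lower and 4 higher, and the median of the members stayed between -0.40 and -0.31. The call of 34 of 37 members was the same under 7 alternatives, and no called member changed sign. The exceptions were Pdia5 (-0.58 to -0.44), Ppib (-0.53 to -0.44) and Derl3, which came to -0.27 with a pseudocount of 1. Counting Dnajb9 and Dnajc10 as ERAD genes moved the median of the chaperones and isomerases to -0.63. Removing the median of the transcript length class moved that of the sensors and factors from -0.057 to 0.10, so that its sign is not settled. Without Hspa5 the log2 ratio of the summed FPKM was -0.57 (-0.55 with it). With CCACG alone in place of the ERSE, 24 of 32 members matched, as did 31.0% of genes, and the median of the members with the letters was then above that of the members without (-0.33 and -0.43, against -0.67 and -0.30 for the ERSE). With 1 mismatch outside CCACG the same 10 members did, beside 0.622% of genes. Scaling to equal totals or to the upper quartile shifted the median of all genes by -0.0064 and -0.034. Depth limits the values of Derl3 and of Runx3, each under 30 fragments per library.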

Other observations

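The chaperones of the cytosol, which fold proteins outside the ER, had a median of -0.058 over 36 genes, with 6 higher (16.7%) and 3 lower (8.33%), beside 12.1% and 9.29% of all genes. Hsph1, an Hsp110, was at 135 FPKM in the library labelled KPR- and at 86.7 FPKM in the library labelled KPRrestored (-0.64), and Fkbp5 at 32.7 and 21.3 FPKM (-0.62). Hspa2 was at 5.72 and 11.2 FPKM (0.97) and the small heat shock protein Hspb1 at 36.7 and 67.0 FPKM (0.87).

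Of the 35 genes with the ERSE letters before their start, 25 were not among the 37 genes, and 5 of these had a mean of at least 1 FPKM. They were Adcy3 (0.08), Alg12 (-0.21), Hnrnpa3 (-0.22), Pan2 (-0.28) and Zfp57 (0.41), none of them past 0.5 either way, with a median of -0.21.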
